A study of Drosophila melanogaster with 32 samples.

Results

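The genes described here were 8 genes of neurotransmitter release and membrane excitability, chosen by name: nSyb, Syx1A, Syt1 and Rop of the vesicle fusion machinery, the channel genes cac, para and Irk1, and the dopamine transporter gene DAT. The array annotation listed 8 probe sets for 6 of them, out of 18769 probe sets in all, and 7 of the 8 were among the 12518 kept for testing, where both replicates of at least 1 line and sex reached a signal of 50. No probe set was listed under Syt1 or Syx1A, and these 2 genes were not analysed here. Signal is the MAS5 expression value of a probe set on a linear scale, and values under 50 were treated as having no order.

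Transmitter is released when a synaptic vesicle fuses with the membrane of the nerve terminal. Synaptobrevin on the vesicle and syntaxin and a SNAP-25 type protein on the terminal membrane zip into a complex, a Sec1/Munc18 protein binds syntaxin, and synaptotagmin senses the calcium that enters through voltage-gated calcium channels once a sodium channel action potential arrives. Inward rectifier potassium channels hold the resting potential, and plasma membrane transporters clear monoamines after release.

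The arrays came from whole bodies of virgin flies aged 42 days, from 7 lines and 1 control line. The 7 lines had been picked because males, females or both lived longer than the control. The lines were homozygous for a single P{GT1} insertion and are named here after the tagged gene: pyd, mub, crol, CG10990, CG9238 and esg, with BG00817 keeping its stock number because its insertion site was not assigned to a gene. Each line is 1 insertion stock, and the control was the co-isogenic Canton S F stock without an insertion. There were 2 arrays for each line and sex, 32 in all, each from a pool of flies, and no source says that the 2 pools of a group were cultured apart, so the p-values cover the spread between arrays, which may be technical.

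Replicate arrays correlated at r = 0.964 to 0.985 over the log2 signal of kept probe sets, and the small number of arrays limits the precision of every value. The median signal over all probe sets was 116.8 to 143 on the male arrays and 49.21 to 72.29 on the female arrays. The marker lists matched the labels of sex and tissue: 7 ovary and maternal germline genes summed to a signal of 528 to 728 in males and 26287 to 36814 in females, 5 accessory gland genes to 26610 to 39673 in males and 42 to 113 in females, and 6 testis genes to 2809 to 7484 in males and 142 to 281 in females. Of these, 4 ovary genes stayed under 50 on every male array, and 4 testis and 4 accessory gland genes stayed under 50 on every female array.

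nSyb, cac and DAT were higher in males than in females in all 8 lines, with no overlap between the sexes within any line, whereas the main probe sets of Rop and Irk1 had nearly the same level in both sexes. Over the 7 kept probe sets, 5 passed the sex test (threshold 0.001 on the adjusted p), all 5 higher in males, but 84.2% of all kept probe sets passed this test and 46.2% passed it as higher in males. The share of all kept probe sets with males above females in every line was 34.6%. Most probe sets thus differed between male and female whole bodies, and the median probe set was 0.20 log2 units higher in males.

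nSyb encodes neuronal synaptobrevin, the vesicle SNARE of synaptic vesicles. Its signal was 233 at the lowest, 303 at the median and 520 at the highest of the 16 male arrays, against 15.4, 104.3 and 253 on the 16 female arrays. The sex difference was 1.81 ± 0.21 log2 units (SE, limma, adjusted p = 1.3e-07), or 1.61 above the median probe set. One female array, CG9238 replicate 2, lay under 50, and with that signal raised to 50 the ratio of the geometric means was 3.25. The sexes were closest in mub, where the signal was 348 and 311 in males and 171 and 253 in females, the highest of all females. In the control it was 295 and 396 in males and 103 and 119 in females.

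Rop encodes the fly Sec1/Munc18 protein that binds syntaxin. Its signal ranged over 563, 776 and 933 (lowest, median, highest) in males and 633, 786 and 907 in females. The difference of −0.017 ± 0.055 log2 units (SE, limma, adjusted p = 0.773) did not pass the test, and its direction depended on scaling: it was 0.30 (adjusted p = 0.000152) after quantile normalization and 0.20 (adjusted p = 0.00487) with each array centred on its median. These scalings moved the difference of the median probe set by −0.22 and 0.22. Male and female arrays of a line overlapped in 5 of the 8 lines, with males above in 2 and below in 1.

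cac encodes the pore-forming subunit of the calcium channel of fly nerve terminals. The 16 male arrays carried 389 to 613 with a median of 495, and the 16 female arrays 132 to 260 with a median of 177, so the lowest male array lay above the highest female array, as it did for 26.1% of kept probe sets. Males were 2.65-fold higher (1.41 ± 0.07 log2 units, SE, limma, adjusted p = 1.4e-13), 1.21 above the median probe set. The difference was even across lines, at 1.24 log2 units in crol and 1.60 in the control as its ends. A second cac probe set stayed under 50 on all 32 arrays, was not kept, and gave no comparison.

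para encodes the voltage-gated sodium channel. It passed the filter through crol males alone, with signals of 54.6 and 51.3, and it lay under 50 on 12 of 16 male and on all 16 female arrays. The fit called it higher in males (adjusted p = 9.2e-06), but with signals under 50 raised to 50 the difference was 0.016 log2 units (adjusted p = 0.509), so no fold is given. The same held in part for a dim second probe set of Irk1, under 50 on 8 male and 15 female arrays, which was called higher in males at adjusted p = 0.000299 and at 0.00221 with low signals raised.

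Irk1 encodes an inward rectifier potassium channel. Its main probe set was bright in both sexes, with 979, 1195 and 1570 (lowest, median, highest) in males and 969, 1170 and 1305 in females. The mean difference over lines was 0.055 ± 0.029 log2 units (SE, limma, adjusted p = 0.08), which did not pass. It was 0.27 after either of the other scalings, called at adjusted p = 2.3e-08 with quantile normalization and 9.5e-08 with centring.

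DAT encodes the plasma membrane dopamine transporter. Male arrays had 85.5, 143 and 189 (lowest, median, highest), against 17.9, 49.1 and 93.0 on female arrays, of which 10 were under 50. With those raised to 50 the ratio of the geometric means was 2.60, and the fit gave 1.56 ± 0.12 log2 units (SE, limma, adjusted p = 3.0e-10). Quantile normalization left 0.47 log2 units (adjusted p = 0.00357), past the threshold no longer. The sexes were closest in esg, with 130 and 159 in esg males and 93.0 and 86.4 in esg females.

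**Figure D1:**
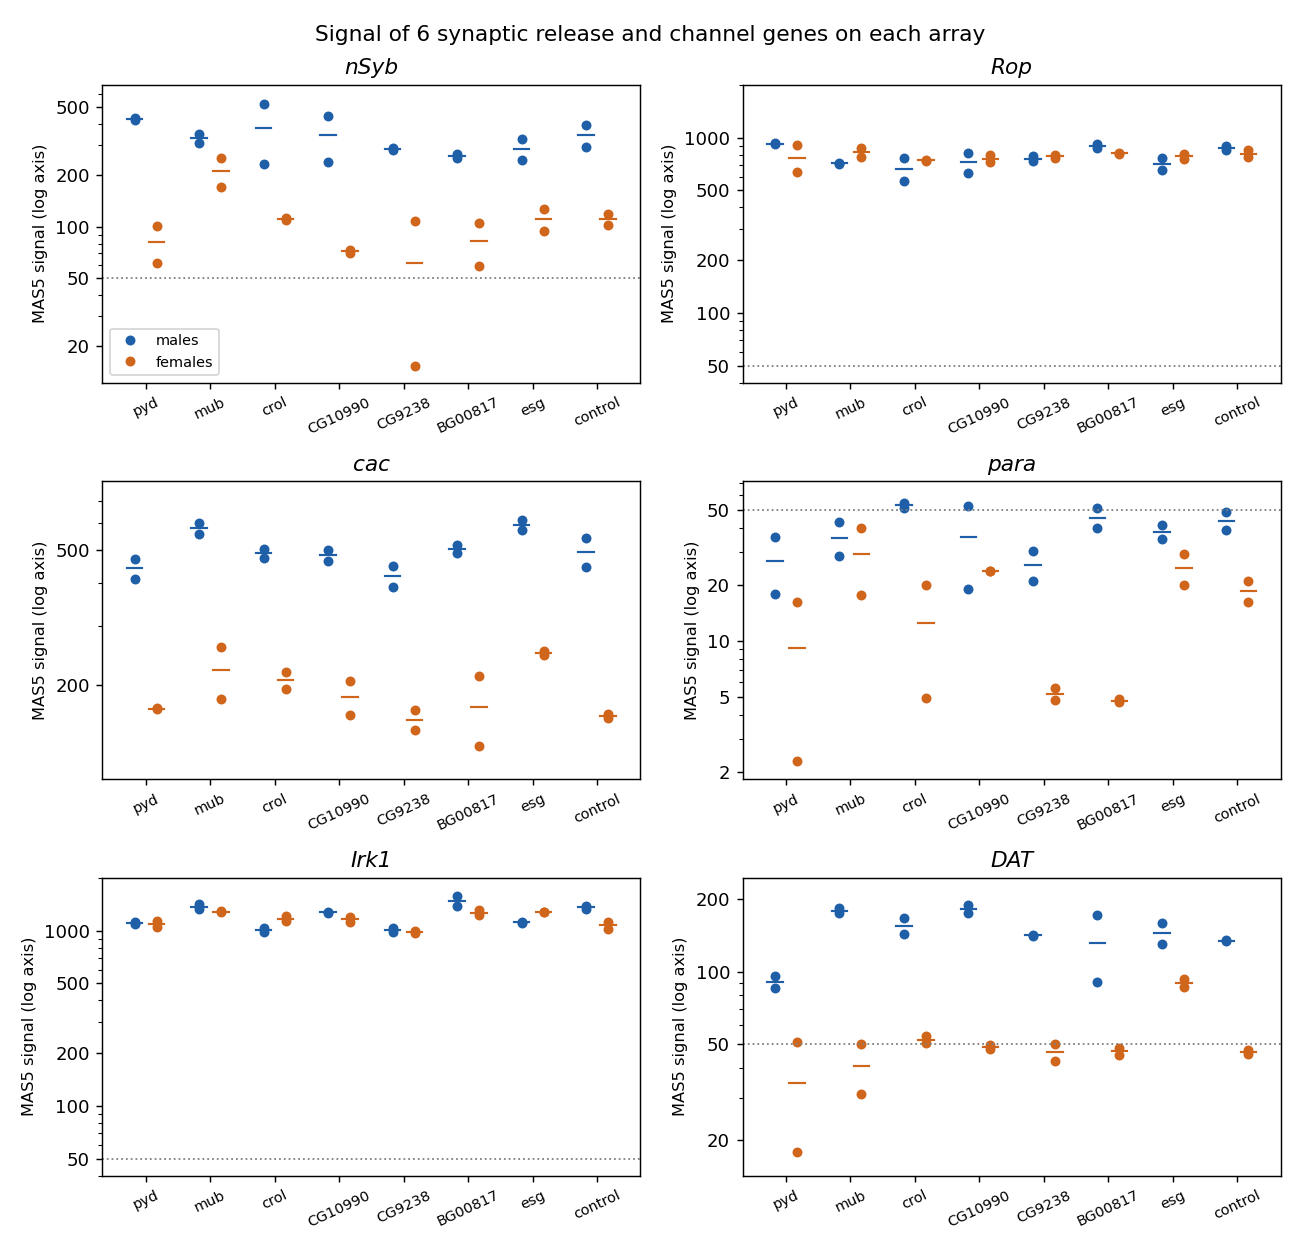
MAS5 signal (log axis) of the main probe set of 6 genes on each of 32 arrays, with 2 points and their mean as a bar for each line and sex, males left of females and the control at the right; the dotted line is the signal of 50. nSyb, cac and DAT have every male point above the female points of the same line, the Rop and Irk1 points of both sexes lie together between 563 and 1570, and para lies mostly under 50.

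**Figure D2:**
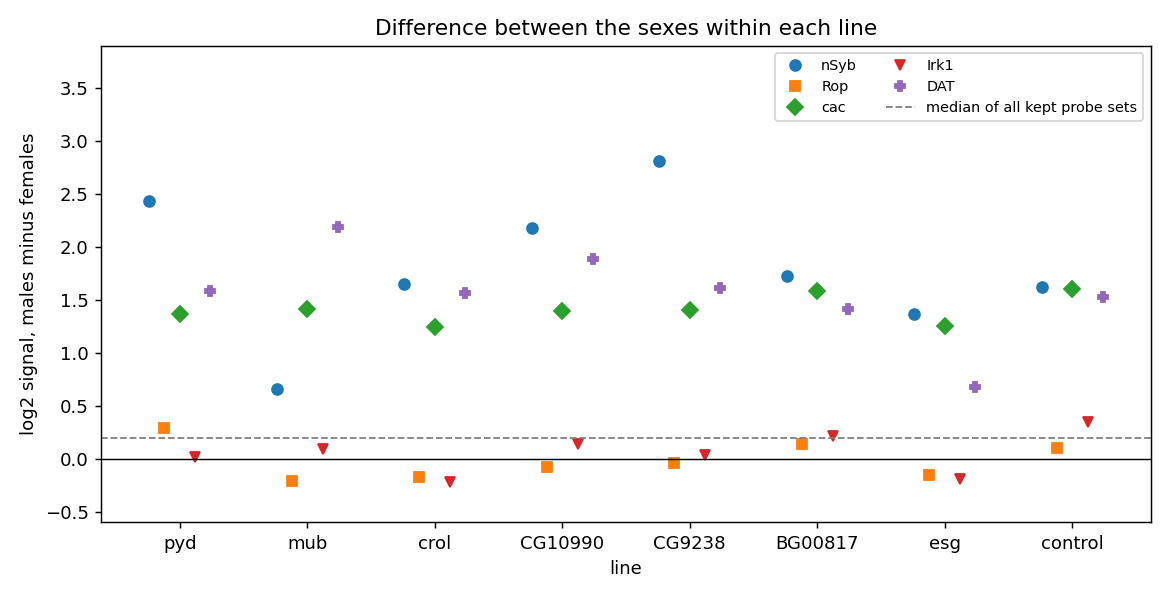
Difference between the sexes in mean log2 signal (males minus females) within each line for the 5 genes with usable signal, with the median of all kept probe sets (0.20) as a dashed line. nSyb spans 0.66 in mub to 2.81 in CG9238, a value that contains the female array with a signal of 15.4, while cac stays between 1.24 and 1.60 and Irk1 falls below 0 in crol and esg.

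Other genes of release and excitability were mostly higher in males too. Of 34 genes of the release machinery, 28 had a probe set, and all were kept. Of these, 19 were higher in males, 5 were lower and 4 did not pass, against 86.6% of 10253 genes called in either direction. The number called in either direction was thus near that share. Among all kept probe sets, 46.2% were called higher in males, and the same shares apply to the other lists below. Their median difference was 1.26 log2 units, against 0.18 over all genes (0.98 against 0.11 with signals under 50 raised to 50). The largest were brp, an active zone scaffold, at 1.90, Rbp, which links calcium channels to the active zone, at 1.76, and Snap25, the partner of syntaxin on the terminal membrane, at 1.74. The brp and Rbp differences rest on dim female signals, 0.50 and 0.12 with signals under 50 raised. Snap25 averaged 2149 in males and 659 in females.

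Among the 5 release genes that were lower in males, Liprin-alpha, a scaffold of active zones, averaged 268 in males and 794 in females (−1.55 log2 units), and Dap160, an endocytic scaffold, 346 in males and 884 in females (−1.35). The SNARE genes Snap24 and Snap29 and the endocytic gene Eps-15 were lower in males by smaller amounts, at −0.54, −0.49 and −0.58. All of these passed at an adjusted p of at most 1.2e-05 in limma.

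Among the 13 kept genes of transmitter synthesis and transport (18 listed, 16 with a probe set), 11 were higher in males, none was lower, and the median was 1.25 log2 units. They included ChT (1.63), the choline transporter, Gad1 (1.62), which makes GABA, Eaat2 (1.61), a glial amino acid transporter, and Ace (1.60), which breaks down acetylcholine. Of 24 kept ion channel genes (33 listed, 31 with a probe set), 20 were higher in males and 2 were lower, with a median of 1.22. Ca-alpha1D, an L-type calcium channel, stood at 1.98, unc79, which acts with the sodium leak channel, at 1.91 and Irk3, an inward rectifier like Irk1, at 1.74. Ork1, a two-pore-domain leak channel, averaged 278 in males and 2222 in females (−3.04) and was the lowest of the list. These counts and medians depended on scaling. After quantile normalization 13 channel genes were called higher and 4 lower (median 0.71), and 8 transmitter genes higher and 1 lower (median 1.34). The release list then had 19 higher and 3 lower (median 0.79), against a median of 0.024 over all genes.

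Markers of most whole tissues on the lists differed between the sexes as well. All 8 kept neuron markers were higher in males (median 1.57 log2 units, summed signal 5006 to 6880 in males and 1704 to 3111 in females, with 1 marker under 50 on all female arrays), as were 6 of 6 glia markers (median 1.36), 6 of 6 muscle markers (median 1.37) and 4 of 4 photoreceptor markers (median 1.02). The neuron markers brp and Syn are also on the release list. After quantile normalization 6 of the 8 neuron markers were called higher (median 1.03), while all glia, muscle and photoreceptor markers still were. Of the 2 kept fat body markers 1 was higher in males, with a median of 0.23, near the 0.18 of all genes. The ovary and maternal germline markers, 7 of 7, were lower in males (median −7.22). In whole-body RNA, fewer cells of a type and less RNA per cell cannot be told apart, and the part of tissue proportions in the sex differences of nSyb, cac and DAT was not tested.

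**Figure D3:**
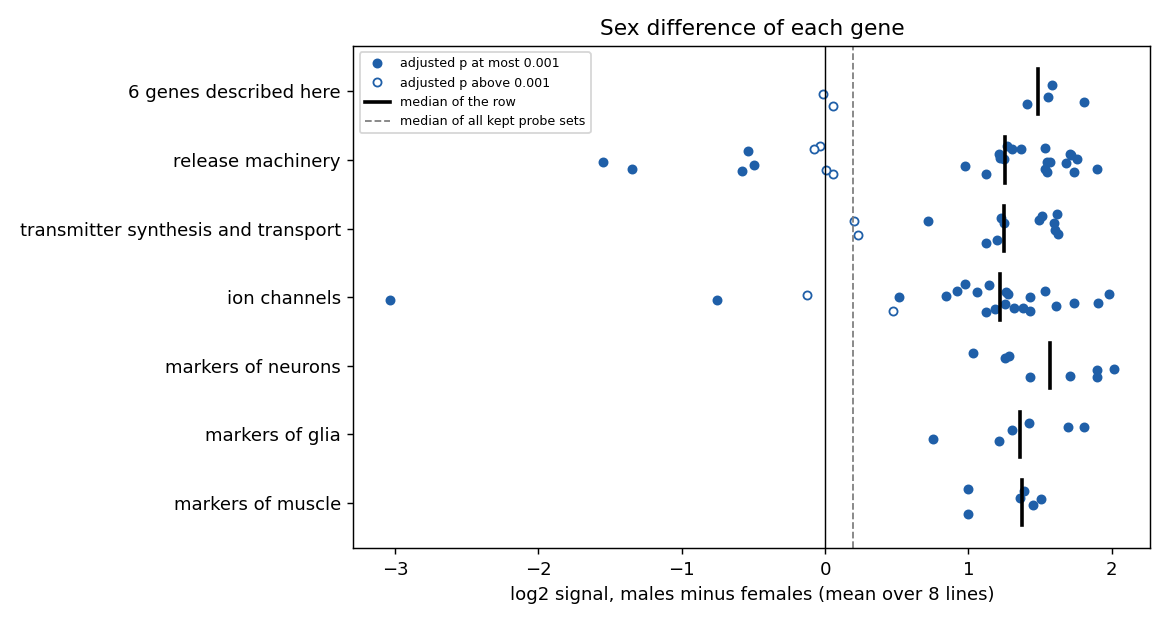
Difference between the sexes (log2 signal, males minus females, mean over 8 lines) of each gene in 7 groups, filled where the adjusted p was at most 0.001; thick bars are group medians and the dashed line is the median of all kept probe sets. With the deposited scaling, the medians of the release, transmitter and channel lists (1.26, 1.25 and 1.22) lie near those of glia and muscle markers (1.36 and 1.37). After quantile normalization (not drawn) the 3 list medians were 0.79, 1.34 and 0.71, against 1.40 for glia and 1.39 for muscle. Rop and Irk1 are the open points of the top row.

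Irk1 was the gene whose line effect passed. Its F-test over the 7 differences from the control, averaged over both sexes, passed at adjusted p = 8.6e-05 (limma, 32 arrays), and it was the only one of the 7 kept probe sets to pass at 0.001, where 10.1% of all kept probe sets did. It stayed at or below an adjusted p of 0.000475 with any 1 array left out. cac, the dim Irk1 probe set and DAT had adjusted p = 0.0183, 0.0299 and 0.0383, and para, Rop and nSyb lay between 0.0763 and 0.271.

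In males, the highest Irk1 signals were those of BG00817 (1570 and 1377), mub (1329 and 1417) and the control (1328 and 1391), which overlapped one another. CG10990 males followed at 1277 and 1268, then esg at 1122 and 1113, pyd at 1121 and 1087, crol at 1035 and 979, and CG9238 at 1034 and 980. Irk1 fell by 0.43 ± 0.09 log2 units in both crol males (SE, limma, adjusted p = 0.0203) and CG9238 males (adjusted p = 0.037), to 0.74 of the control level. These were the 2 calls among 49 pairs of a kept probe set and a line in males, where 5.08% of all such pairs were called; lower calls made up 5.18% of kept probe sets in crol males and 1.36% in CG9238 males.

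Leaving out a single array could end either call. The crol call was lost without control males replicate 1 or 2 (adjusted p = 0.0577 and 0.146) or crol males replicate 2 (0.12). The CG9238 call was lost without the same control arrays (0.132 and 0.271), either CG9238 male array (0.112 and 0.258), either mub male array (0.06 each) or either esg male array (0.0694 each), while the difference itself stayed between −0.47 and −0.39.

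In females the order was another one. mub (1274 and 1299), esg (1274 and 1271) and BG00817 (1305 and 1231) were highest, followed by crol (1217 and 1130), CG10990 (1118 and 1202), pyd (1043 and 1138), the control (1118 and 1023) and CG9238 (995 and 969). No member passed at 0.05 in any female comparison (0 of 49 pairs with limma, 8 at an unadjusted p under 0.05, 2 by analysis of variance on untransformed signal), where 5.95% of all pairs were called. Irk1 in mub females came nearest, at 0.27 ± 0.09 log2 units (SE, adjusted p = 0.0542). CG9238 was the line with Irk1 below the control in both sexes without overlap (−0.28 ± 0.06 over both sexes, adjusted p = 0.0788), a pattern that 10.9% of kept probe sets shared in that line.

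Irk1 lay above the control in females and below it in males in crol, CG10990 and esg, without overlap in either sex (in CG10990 females barely, since the nearest CG10990 and control arrays both read 1118), as did 6.78%, 3.28% and 5.11% of all kept probe sets in those lines. The change in males minus the change in females was −0.57 ± 0.15 log2 units in crol (SE, adjusted p = 0.168) and −0.53 ± 0.12 in esg (adjusted p = 0.154), neither of which passed. This value was negative in all 7 lines, with −0.13 in BG00817 as the smallest. All of these comparisons share the same control arrays. The control had the largest difference of Irk1 between the sexes of any line, at 0.35 log2 units with males higher. The test of line by sex over all 7 lines gave Irk1 an adjusted p of 0.0217, above the threshold of 0.001 that 0.591% of kept probe sets passed, and 0 of the 7 kept probe sets passed it by limma or by analysis of variance (1 at an unadjusted p under 0.05). The dim second Irk1 probe set had an adjusted p of 0.513 in the same limma test. It lay under 50 on 15 female and 8 male arrays, so that test cannot show whether it follows this pattern. In BG00817 males, where the main probe set was at its highest, it was under 50 (10.5 and 2.69), against 84.3 and 92.3 in control males.

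Averaged over both sexes, esg was the line in which cac and DAT passed. cac was at 574 and 613 in esg males against 543 and 447 in control males, and at 252 and 245 in esg females against 165 and 160 in control females, so esg lay above the control in each sex without overlap, as did 9.59% of kept probe sets. The difference was 0.44 ± 0.08 log2 units (SE, limma, adjusted p = 0.045), and 3.19% of kept probe sets were called higher in esg. DAT was at 130 and 159 in esg males against 135 and 134 in control males, which overlapped, and at 93.0 and 86.4 in esg females against 47.4 and 45.8 in control females.

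The DAT difference in esg was 0.52 ± 0.08 log2 units (SE, adjusted p = 0.0362), or 0.47 in mean log2 signal with the control females raised to 50, and with those raised it was 0.84 log2 units in females and 0.095 in males. The change in males minus that in females was −0.85 ± 0.17 (adjusted p = 0.13), which did not pass. Within females alone neither gene passed (cac 0.61, adjusted p = 0.153; DAT 0.94, adjusted p = 0.196). Leaving out any 1 of the 8 esg and control arrays ended both calls, with adjusted p from 0.0673 to 0.138 for cac and 0.0541 to 0.133 for DAT. Of 10 other ways of processing, 5 ended the cac call and 6 the DAT call, a replicate block and 1 fit of all arrays among them, over adjusted p of 0.0197 to 0.127 for cac and 0.0205 to 0.212 for DAT.

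Over all lines and both sexes together, 6 of 49 pairs of a kept probe set and a line passed at 0.05, 2 higher and 4 lower, where 5.35% of all such pairs did. The 4 lower ones were para and the dim Irk1 probe set, each in CG9238 and in BG00817, and they rested on signals under 50; 3% of kept probe sets were called lower in CG9238 and 4.34% in BG00817. para was at 20.8 and 30.2 in CG9238 males and 39.8 and 51.0 in BG00817 males, against 39.3 and 48.5 in control males. With low signals raised to 50 its differences were 0 in CG9238 and 0.0069 in BG00817. The dim Irk1 probe set was under 50 on all arrays of both lines and in control females, against 84.3 and 92.3 in control males. It had passed the filter through males of the control, pyd and mub. With low signals raised to 50 it was 0.41 log2 units lower in each of the 2 lines. Only the control male arrays then differed from 50, so all the spread in that test came from them, and its p-values are not given. All 4 calls but that of the dim Irk1 probe set in CG9238 were lost without control males replicate 1 (0.0534 to 0.0713), and all 4 without control males replicate 2 (0.0554 to 0.094).

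nSyb and Rop passed in no line. The nSyb difference from the control in mub, whose signals are given above, was 0.43 ± 0.17 log2 units (SE, adjusted p = 0.136), without overlap in females and with overlap in males. Its replicates lay far apart in several groups, as in crol males (520 and 233), CG10990 males (448 and 238) and CG9238 females (108 and 15.4). Rop was below the control males without overlap in males of mub, crol, CG10990, CG9238 and esg, as were 33.8%, 34%, 26%, 33% and 26.3% of kept probe sets, most in crol (766 and 563 against 891 and 845, −0.40 ± 0.16, adjusted p = 0.126). DAT was lowest in pyd males (85.5 and 96.5 against 135 and 134 in control males, −0.57 ± 0.24, adjusted p = 0.182).

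**Figure D4:**
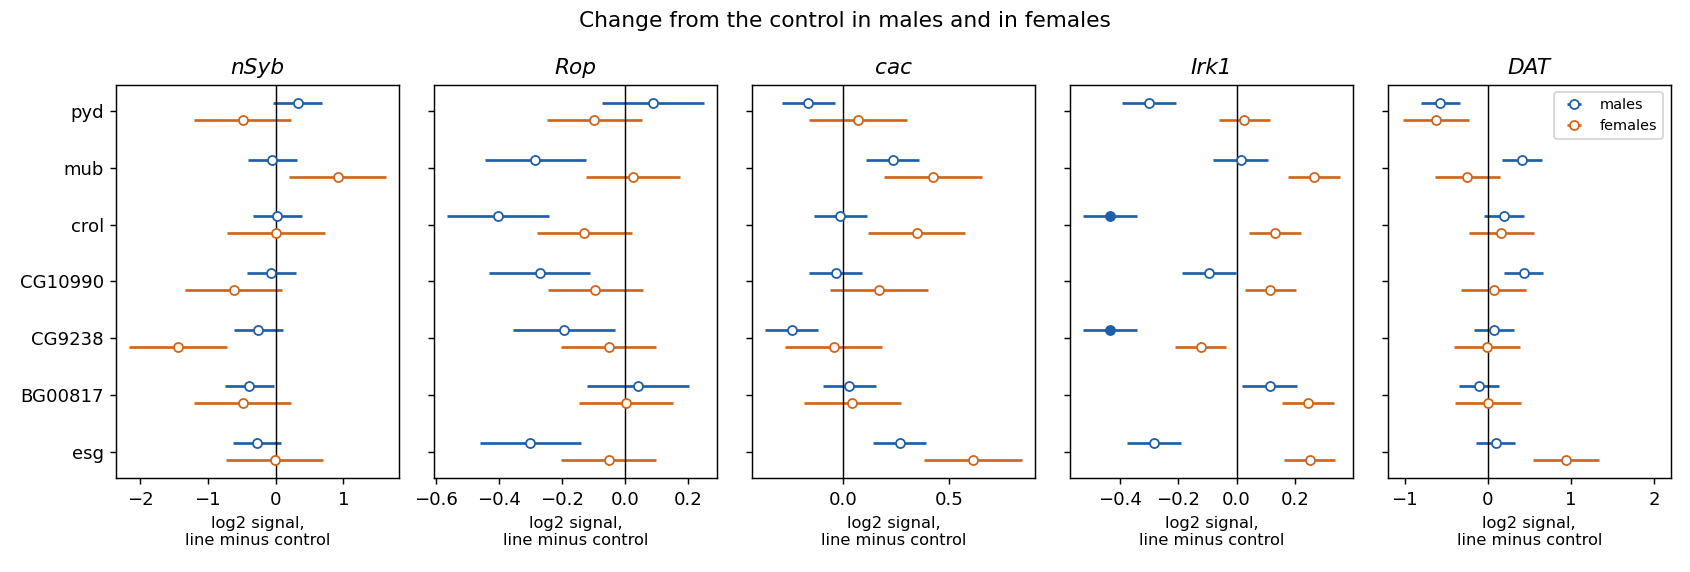
Change from the control in log2 signal (line minus control, with its SE from limma) in males and in females of each line, for 5 genes; filled points passed at an adjusted p of 0.05. Only Irk1 in crol and CG9238 males is filled, and Irk1 in crol, CG10990 and esg has males left of 0 and females right of it. The scales differ between panels, and DAT in females rests on control signals under 50.

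In the wider lists, mub and esg had the most genes called higher, a ranking that does not allow for how many genes each line had called in all. In mub, 5 of 13 transmitter genes were higher and none lower, with a median of 0.39 log2 units against −0.051 over all genes, where 13.6% of genes passed in either direction. They were Tdc2, which makes tyramine (0.79; 0.35 with signals under 50 raised), ChT (0.55), the acetylcholine genes VAChT (0.53) and ChAT (0.40), and Eaat2 (0.42). Of 24 channel genes, 4 were higher in mub: Hk, a beta subunit of Shaker channels, at 1.48, SK, a calcium-activated potassium channel, at 1.34, Sh, the Shaker potassium channel, at 0.53 and Slob, which binds the Slo channel, at 0.52. Of 28 release genes, 3 were higher and 1 lower (median 0.26). The channel and release counts in mub were thus near the 13.6% of all genes called in that line. The counts of genes called higher in mub depended on scaling. For transmitter genes the count was 2 of 13 with quantile normalization and 6 with arrays centred on their medians, and for channel genes 3 and 7.

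In esg, 4 of 28 release genes were higher and 1 lower (median 0.29 log2 units against −0.0070 over all genes; 5.57% of genes passed). Syngr, a vesicle membrane protein, stood at 0.59, unc-104, the kinesin that carries vesicle precursors, at 0.36 and alphaSnap, which takes SNARE complexes apart, at 0.34, while Snap24 stood at −0.44. SK (1.26), Slob (0.37) and Ih (0.28) were the 3 channel genes that rose, and Eaat2 (0.54) the 1 transmitter gene. SK also rose in pyd (0.72) and BG00817 (0.64), and Hk in CG9238 (0.84). The list medians kept their signs in mub and esg under both other scalings, but the channel genes called higher in esg were 1 with quantile normalization and 3 with centring.

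Marker lists of whole tissues also stood apart in esg and mub females, though not in these lines alone. The 7 ovary and maternal germline markers summed to 28804 to 29127 in esg females and 26287 to 27027 in mub females, against 33427 to 34293 in control females, and 1 of the 7 was called lower in each line over both sexes. The 6 glia markers summed to 7720 to 8613 in esg females and 8388 to 9082 in mub females, against 5575 to 6254 in control females (median differences over both sexes 0.23 log2 units in esg and 0.34 in mub). The 8 neuron markers summed to 2470 to 2749 in esg females and 2785 to 3111 in mub females. Control females had 1842 to 2642, overlapping esg. The neuron medians over both sexes were 0.24 log2 units in esg and 0.32 in mub. With low signals raised, the neuron medians were 0.0555 in esg and 0.248 in mub, and the glia medians 0.234 and 0.318. The neuron median in esg thus rested largely on low signals. Over both sexes, 1 glia marker in mub was called by limma and no other member of these lists of neurons and glia in either line. The other somatic lists were likewise above control females: the 6 muscle markers at 11678 to 11858 in esg and 10597 to 11005 in mub against 9083 to 9732, the 4 photoreceptor markers at 17675 to 19454 and 21397 to 22155 against 15075 to 15952, and the 2 fat body markers at 13952 to 16536 and 17428 to 20058 against 10436 to 12477. Over both sexes, 1 of 4 photoreceptor markers in esg and 2 of 4 in mub were called higher, and 1 of 2 fat body markers in each line (medians 1.59 log2 units in esg and 1.67 in mub). Ovary sums also lay below control females in pyd (27252 to 31248), crol (30317 to 31043) and BG00817 (30495 to 33022). Glia sums lay above them in crol (6703 to 7578) and CG10990 (6378.5 to 6574). Photoreceptor sums did so in crol (19583 to 20728), CG10990 (16585 to 18829) and BG00817 (15991 to 17611). Fat body sums did so in pyd (12863 to 18545) and CG10990 (12516 to 13373). Muscle sums lay below control females in pyd, CG10990, CG9238 and BG00817. For ovary and glia, CG9238 females went the other way, with 35713 to 36814 for ovary and 4733 to 5137 for glia. Over both sexes the fat body median was 0.89 (BG00817) to 1.44 (pyd) in the remaining lines. In males the neuron and glia sums of esg overlapped those of the control (5305 to 5672 against 5161 to 5825 for neurons), while both sums lay above the control in mub males, at 6286 to 6594 for neurons and 13179 to 13513 for glia against 12247 to 13030. The muscle sum lay below the control in mub males, at 18563 to 19626 against 21129 to 23522, and overlapped it in esg males. Over both sexes the muscle median was 0.0042 log2 units in mub and 0.15 in esg. Photoreceptor and fat body sums of mub males lay above the control. The part of these tissues in the differences of cac, DAT and the wider lists was not tested.

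The largest changes of the release list were those of 3 genes of chromosome 4. unc-13, which primes vesicles, was higher in all 7 lines, by 1.56 log2 units in CG9238 up to 2.12 in esg, with mean signals of 872 to 1243 in the lines against 312 in the control. Syt7, a synaptotagmin gene, was under 50 on average in pyd, mub, crol and CG9238 against 343 in the control, at least 5.67-fold lower in each, and Cadps, a dense-core vesicle priming factor, was lower in CG10990 (−1.09) and BG00817 (−1.74). In pyd, CG10990 and BG00817 these genes made up 2 of 2, 2 of 2 and 2 of 3 calls of the list. Over all kept probe sets, 5.35% of probe set and line pairs were called in either direction. The share of genes called in all 7 lines is not given here. All 7 comparisons share the same 4 control arrays, so they are not independent of one another. The Syt7 probe set carries the array's mark for probes shared between transcripts, so its signal may not be of Syt7 alone.

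A measure of RNA quality differed among the lines. The mean log2 ratio of 3′ over 5′ control probe sets was 2.08 in BG00817, 1.91 in CG9238, 1.83 in CG10990, 1.80 in esg, 1.80 in mub, 1.67 in crol and 1.55 in pyd, against 1.60 in the control (1.35 to 1.96 over its arrays). Its part in the line differences given above was not tested.

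The genes whose log2 signal was most like that of each member over the 32 arrays, with the mean of each sex removed, were Galphaq (r = 0.82) and CG10126 (0.77) for cac, CG12012 (0.80) and roq (0.76) for Rop, Drsl2 (0.77) and CG16953 (0.75) for Irk1, dpr7 (0.75) and nrm (0.73) for nSyb, beat-IIIc (0.75) and mub (0.75) for para, and eya (0.71) and Pex14 (0.71) for DAT. Among the members themselves r ran from −0.53 for Rop and DAT to 0.49 for cac and para. These values describe arrays that share lines and processing, and the ones for para and DAT include signals under 50.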

How the data were processed

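The authors hybridised RNA of each pool to an Affymetrix Drosophila array and deposited intensity values, 1 linear MAS5 signal for each probe set (version not given in the sources used here). The methods state scaling to a median, whereas the deposited intensity values have a mean of 500 on each array after trimming 2% at each end. Of 18952 probe sets, 183 array controls were left out. Of the 12518 kept, 11072 had 1 gene in the annotation supplied with the series, 342 several and 1104 none. Genes came from that annotation and its synonyms.

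log2 signal was tested in R 4.3.3 with limma 3.58.1, with p-values adjusted by Benjamini-Hochberg over all kept probe sets. Sex, line and line by sex were fitted on 32 arrays (16 residual degrees of freedom, threshold 0.001), the 7 contrasts with the control in 8-array fits over both sexes (4 degrees of freedom left, threshold 0.05), and the same contrasts within 1 sex on its 16 arrays (8 left, 0.05). Where signals lay under 50, mean log2 differences were recomputed with those signals raised to 50 ("at least" where 1 group lay wholly under 50). Each gene was represented by its probe set of highest mean log2 signal. From each list, up to 4 called genes of largest change were to be named in a comparison, as well as the 2 genes most like each member; genes named beyond that were chosen after their values were seen. The members and lists were chosen with earlier results of these data known. The tests were run on simulated data first. Alternatives were other scalings, filters and an offset of 16, an intensity trend, the methods' analysis of variance, a replicate block, 1 fit of all 32 arrays, low signals raised to 50 and each array left out.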

Additional observations from a re-analysis of the deposited data

Results flagged for a closer look

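The change of Irk1 from the control differed between males and females by the test of line by sex over the 7 lines, at an adjusted p of 0.0217 (limma, 32 arrays), past 0.05 but not the 0.001 used for that test. The level in males ran from 1007 in crol and CG9238 to 1474 in BG00817, with 1360 in the control, and in females from 982 in CG9238 to 1286 in mub, with 1071 in the control. The adjusted p ranged over 0.0146 to 0.0541 with 1 array left out, and the dim second probe set of Irk1, mostly under 50, gave 0.513.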

How the results depend on the processing

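The sex differences of nSyb and cac kept their direction and passed under all 9 alternatives, and the line effect of Irk1 under all but its dim second probe set (adjusted p = 0.0299). The number of members passing for sex, 5, was 3 with the filter at 100 and 3 with low signals raised to 50, an alternative chosen after seeing the data. The 6 pairs of lines against the control were 2 without a filter, 2 with the filter at 100, 3 by analysis of variance on untransformed signal and 2 in 1 fit of all arrays. The 0 pairs in females were 1 after quantile normalization, after centring, with the filter at 100, with an intensity trend or in 1 fit, 2 by analysis of variance and 3 with low signals raised. The 2 pairs in males were 1 after quantile normalization or centring and 0 without a filter. The cause was not tested.

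With 1 array left out, members passing ranged over 5 to 5 for sex, 1 to 2 for line, 0 to 0 for line by sex, 0 to 9 for lines against the control, 0 to 4 in females (4 without pyd females replicate 2, 2 without pyd females replicate 1) and 0 to 3 in males (0 without either control male array). The difference of Rop between the sexes turned to 0.30 and 0.20 under the 2 scalings and, from a range of −0.049 to 0.015 with 1 array left out, to 0.015, 0.011 and 0.0072 without pyd females replicate 1, crol males replicate 2 and CG10990 males replicate 2, and para in BG00817 turned to 0.0069 with low signals raised.

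Same-numbered arrays of a line and the control gave r = −0.144 to 0.0822 between their deviations, and same-numbered arrays over all 120 pairs of groups −0.144 to 0.242 (median −0.0070), so the numbers were not taken to pair the arrays. With a replicate block, the members passing were 5, 1, 0, 4, 0 and 2 for sex, line, line by sex, lines against the control, females and males, and over all probe sets the calls of lines against the control were 1901, against 4689 without the block. cac and DAT in esg gave adjusted p = 0.0827 and 0.0709 under the block. Signals near 50, those of para, DAT in females and the dim probe set of Irk1, limit what can be read from these genes.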
